A study of Homo sapiens with 6 samples.

Results

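The 6 genes described here are FAM117B, C14orf93, POLR1B, TTL, DHRS13 and BCAN, taken from 19987 protein-coding genes of the human annotation. They were chosen by the fold and the rank of the peaks at them in these same lists, so the folds, the positions and the presence of these peaks are descriptions and were not tested. Every peak over the annotated span of one of these genes, or within 1000 bp of it, was taken from the peak lists of 3 chromatin immunoprecipitation sequencing (ChIP-seq) libraries. The libraries came from a V5 immunoprecipitation of a clone of HepG2, a human liver cancer line, that carries TAF2 with a V5 peptide tag. The other 3 of the 6 libraries are controls from the same clone, named input by treatment, input DNA by title and IgG by library name. No peak list of the controls was used here, so no value measured in controls stands beside those of the V5 libraries. How the tagged TAF2 is expressed in this clone, how it compares with the untagged protein, and whether the libraries came from separate cultures are not given in the labels.

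TAF2 is a subunit of TFIID, the complex that recognises core promoters and nucleates the assembly of the RNA polymerase II machinery. Within TFIID, TAF1 and TAF2 contact DNA around and downstream of the transcription start. Active mammalian promoters of the CpG island type often lack a TATA box and can hold several start sites, so an annotated start names only one point within a wider stretch.

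The peaks at the 6 genes fell into 7 sites, formed by joining peaks of different libraries that overlapped. Sites at the annotated starts of FAM117B, C14orf93, POLR1B and DHRS13, 1 site inside C14orf93 and 1 beyond the 3′ end of BCAN had peaks of all 3 libraries. A weak site inside POLR1B had peaks of 2 libraries. TTL had no site of its own, since the peaks near its 3′ end were those at the start of POLR1B. A peak in each of the 3 libraries, over the span or within 1000 bp, was present at 1.9% of all protein-coding genes and at all 6 of these, which the choice of the genes fixes. That share differed with the length of the gene, from 1.04% of genes up to 8568 bp long, such as DHRS13, to 3.32% of genes of at least 65169 bp, such as FAM117B.

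The name under which these genes were grouped, the strongest narrow peaks, held in part. By the mean of their rank percentiles for fold over the 3 lists, the sites at FAM117B, C14orf93 and POLR1B took places 1 to 4 among the 647 regions with peaks of 3 libraries, DHRS13 took place 10 and BCAN place 26. By the mean percentile of -log10 q the places were lower, at 6 for FAM117B, 8 and 3 for the start and the inside of C14orf93, 12 for POLR1B, 22 for DHRS13 and 56 for BCAN. The peaks were wider than the median peak of their lists, most of which are weaker. Median peak width was 220, 224 and 224 bp in replicates 1, 2 and 3, and the strongest peaks at the 6 sites with 3 libraries were 319 to 631 bp wide, apart from those at the start of C14orf93, which were 1167 to 1491 bp wide. As joined sites they were 369 to 645 bp wide, and 2028 bp at the start of C14orf93, against a median of 403 bp over the 615 regions of 3 libraries that are up to 2000 bp wide. The 30 highest-ranked regions by fold, which include these 6 sites, had a median width of 590.5 bp. Of those regions, 22 were up to 1000 bp wide and 8 were wider than 2000 bp.

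The promoter windows that held a peak summit in all 3 libraries are shown first, because the positions below are given within them. Each runs from 250 bases before to 50 bases after an annotated start, 5′ to 3′ along the gene, in RefSeq sequence of GRCh38. Capitals mark matches, on either strand, to the short motifs named further below.
FAM117B, chr2:202634719-202635018, plus strand: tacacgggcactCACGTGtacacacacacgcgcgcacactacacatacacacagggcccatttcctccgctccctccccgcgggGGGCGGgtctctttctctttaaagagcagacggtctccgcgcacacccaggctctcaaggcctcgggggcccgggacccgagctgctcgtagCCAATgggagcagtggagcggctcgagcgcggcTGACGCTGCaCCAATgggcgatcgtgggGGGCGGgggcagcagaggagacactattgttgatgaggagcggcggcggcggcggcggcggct
C14orf93, chr14:23010094-23010393, minus strand: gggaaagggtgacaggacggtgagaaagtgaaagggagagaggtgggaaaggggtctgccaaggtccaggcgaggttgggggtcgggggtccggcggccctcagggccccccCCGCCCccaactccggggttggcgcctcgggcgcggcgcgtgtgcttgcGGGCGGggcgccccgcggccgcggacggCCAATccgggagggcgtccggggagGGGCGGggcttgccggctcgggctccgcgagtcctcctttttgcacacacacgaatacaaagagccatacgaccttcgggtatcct
POLR1B, chr2:112542215-112542514, plus strand: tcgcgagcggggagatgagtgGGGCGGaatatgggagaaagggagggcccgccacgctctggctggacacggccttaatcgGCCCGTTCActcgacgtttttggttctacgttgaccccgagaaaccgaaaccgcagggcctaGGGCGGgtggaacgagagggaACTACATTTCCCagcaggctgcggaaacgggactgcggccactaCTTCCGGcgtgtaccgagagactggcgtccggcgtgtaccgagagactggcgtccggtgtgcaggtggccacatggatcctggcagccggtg
DHRS13, chr17:28903030-28903329, minus strand: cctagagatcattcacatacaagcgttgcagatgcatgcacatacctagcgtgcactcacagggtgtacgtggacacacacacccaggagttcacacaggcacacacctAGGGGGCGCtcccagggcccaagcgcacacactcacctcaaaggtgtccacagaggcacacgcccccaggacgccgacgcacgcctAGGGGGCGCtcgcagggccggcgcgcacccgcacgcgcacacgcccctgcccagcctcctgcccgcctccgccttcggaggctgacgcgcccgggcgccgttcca

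The start of FAM117B carried the highest-ranked site of the 3 lists. FAM117B (chromosome 2, 202634969 to 202769757) encodes a little-studied protein. Its peak ran from 202634560 to 202634969 in replicate 1, from 202634544 to 202634940 in replicate 2 and from 202634389 to 202634940 in replicate 3. The right edge was therefore within 29 bp in the 3 libraries and ended at or just before the first annotated base of the gene, while the left edge varied by 171 bp. The fold over background, which is the authors' own value for the peak, was 25.2, 26.7 and 30.8 in replicates 1, 2 and 3, and had ranks 1, 3 and 1 in those lists. The authors' -log10 q was 128, 120.1 and 160.3. Summits lay at 202634728, 202634730 and 202634730, within 2 bp of each other and 241, 239 and 239 bp before the annotated start. They correspond to bases 10, 12 and 12 of the window shown, next to a CACGTG at bases 13 to 18. The window begins at 202634719, so the part of each peak before that base is not shown and was not searched for motifs. The nearest other peak of any library lay 361115 bp away.

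C14orf93 had strong peaks at 2 places about 3 kb apart in each library. C14orf93 (chromosome 14, 22985894 to 23010143, minus strand) encodes a protein whose function is poorly known. At its upstream annotated start the strongest peaks spanned 1372, 1491 and 1167 bp in replicates 1, 2 and 3, with folds of 24.4, 27.0 and 24.4. Their -log10 q was 136, 119 and 132. The summits lay 3, 50 and 33 bp before the annotated start at 23010143, a spread of 47 bp. Without replicate 1, 2 or 3 in turn that spread was 17, 30 and 47 bp. Each peak reached farther into the gene than upstream of it, since the summit stood at 79.0, 63.6 and 78.0% of the peak's length counted from its edge inside the gene. In replicate 2 a second, weak peak from 23008708 to 23009090 lay farther inside the gene, with a fold of 4.08 and a -log10 q of 2.90, and it covered one end of the noncoding RNA gene LOC124903286. The other annotated start of C14orf93, at 23001037, had no summit in its window, and its window held 35.0% G and C.

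The second site, inside C14orf93 (chromosome 14, 23006864 to 23007494), took place 2 of the 647 regions, next to the start at place 3, and was less wide. Its peaks were 571, 631 and 548 bp wide, and their folds were 22.4, 27.3 and 29.8 in replicates 1, 2 and 3. Within each list, the fold at this inner site was 0.919, 1.01 and 1.22 times that at the start, so the 2 sites had no common order. By -log10 q the inner site had 133, 141 and 193, against 136, 119 and 132 at the start, and the value of 193 in replicate 3 was the highest of that list. The inner summits lay at 23007140, 23007167 and 23007148, a spread of 27 bp, or 19, 8 and 27 bp without replicate 1, 2 or 3 in turn. They were 3003, 2976 and 2995 bp downstream of the upstream start and 6103, 6130 and 6111 bp before the other annotated start of C14orf93. The site lies within the span of LOC124903286 (23002426 to 23008984). The promoter table has no window for that gene, so its strand and start are not used here, and no sequence of this inner site is shown.

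The site shared by POLR1B and TTL lay at the downstream of the 2 annotated starts of POLR1B. POLR1B (chromosome 2, 112542036 to 112579818) encodes the second-largest subunit of RNA polymerase I, which transcribes ribosomal RNA. TTL (chromosome 2, 112482156 to 112541739) lies just upstream on the same strand and encodes tubulin tyrosine ligase, which restores the terminal tyrosine of alpha-tubulin. The peaks ran from 112542200 to 112542633, from 112542210 to 112542698 and from 112542246 to 112542713 in replicates 1, 2 and 3. Their folds were 18.5, 19.7 and 18.1, the fourth highest of each list, and their -log10 q was 83.0, 86.1 and 76.2. Among the strongest 4 sites these folds were the lowest in every list.

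Summits at POLR1B lay 20, 35 and 20 bp before the annotated start at 112542465, and 409, 394 and 409 bp after the upstream start at 112542036. The summits of replicates 1 and 3 were at the same base, and that of replicate 2 was 15 bp away. The window of the upstream start held no summit. The noncoding RNA gene LOC105373562 starts at 112542212 on the opposite strand, so the same summits were also 233, 218 and 233 bp before its start. From the 3′ end of TTL the peaks were 461, 471 and 507 bp away, and from the start of TTL the summits were 60289, 60274 and 60289 bp away. With no window around the spans, TTL had no peak in any library. The start of TTL had none, although its promoter window was the richest in G and C of the 8 windows of these genes, at 82.0%.

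A weaker site lay inside POLR1B, 391 bp beyond the first (112543104 to 112543379). It had a fold of 3.88 in replicate 1 and 4.45 in replicate 3, and no peak in replicate 2. These folds were 0.210 and 0.246 times those at the start in the same lists and stood below the list medians of 5.01 and 5.03. The -log10 q was 1.68 and 2.66, where the lowest values in those lists are 1.31 and 1.33. The summits were 97 bp apart.

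Among the strong sites at starts, DHRS13 had the smallest peaks and the largest spread of summits, 50 bp against 47 bp at the start of C14orf93. DHRS13 (chromosome 17, 28897781 to 28903079, minus strand) encodes a member of the short-chain dehydrogenase/reductase family. Its peaks were 337, 350 and 319 bp wide and all covered the annotated start at 28903079. Their edges varied by 44 bp on the left and 19 bp on the right. The fold was 16.9, 15.7 and 10.9 in replicates 1, 2 and 3, which ranked 5, 9 and 21 in those lists, and the -log10 q was 55.6, 42.4 and 28.7. Replicate 3 was the low library here, whereas at FAM117B and at the inner site of C14orf93 it held the highest fold. The summits lay 73, 69 and 23 bp before the start. Their spread was 50 bp, and 46, 50 and 4 bp without replicate 1, 2 or 3 in turn. The nearest other peak of any library was 274956 bp away.

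The site listed for BCAN lay outside the gene. BCAN (chromosome 1, 156642117 to 156659528, plus strand) encodes brevican, a chondroitin sulfate proteoglycan of the extracellular matrix of the brain. The peaks ran from 156660283 to 156660730, from 156660147 to 156660613 and from 156660086 to 156660657 in replicates 1, 2 and 3. They were 755, 619 and 558 bp beyond the annotated 3′ end of BCAN, and their summits were 18290, 18277 and 18273 bp from its start. The site is within the span of BCAN-AS2, a noncoding RNA gene (156645736 to 156661440), for which the promoter table has no window. The promoter window of BCAN held no summit. Folds were 8.97, 13.0 and 9.06, and the -log10 q was 19.1, 29.0 and 17.2, so replicate 2 was the high library by both values. The rank percentiles by fold were 97.1, 99.2 and 96.7, a mean of 97.6 ± 1.35 (SD, n = 3). This was the widest spread of percentiles of the 6 sites with 3 libraries, but percentiles nearer the top of a list leave less room for spread. The fold itself had an SD of 2.31 at BCAN, about a mean of 10.3, the lowest mean of these 6 sites. The SD was below 2.89 at FAM117B, 3.75 inside C14orf93 and 3.17 at DHRS13, where the means were 27.6, 26.5 and 14.5. It was above 1.52 at the start of C14orf93 and 0.862 at the start of POLR1B, with means of 25.3 and 18.8. These SDs are not scaled to the mean, so they do not show closer agreement at BCAN than at sites of higher fold. The summits at 156660407, 156660394 and 156660390 lay within 17 bp, and within 4, 17 and 13 bp without replicate 1, 2 or 3 in turn.

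**Figure D1:**
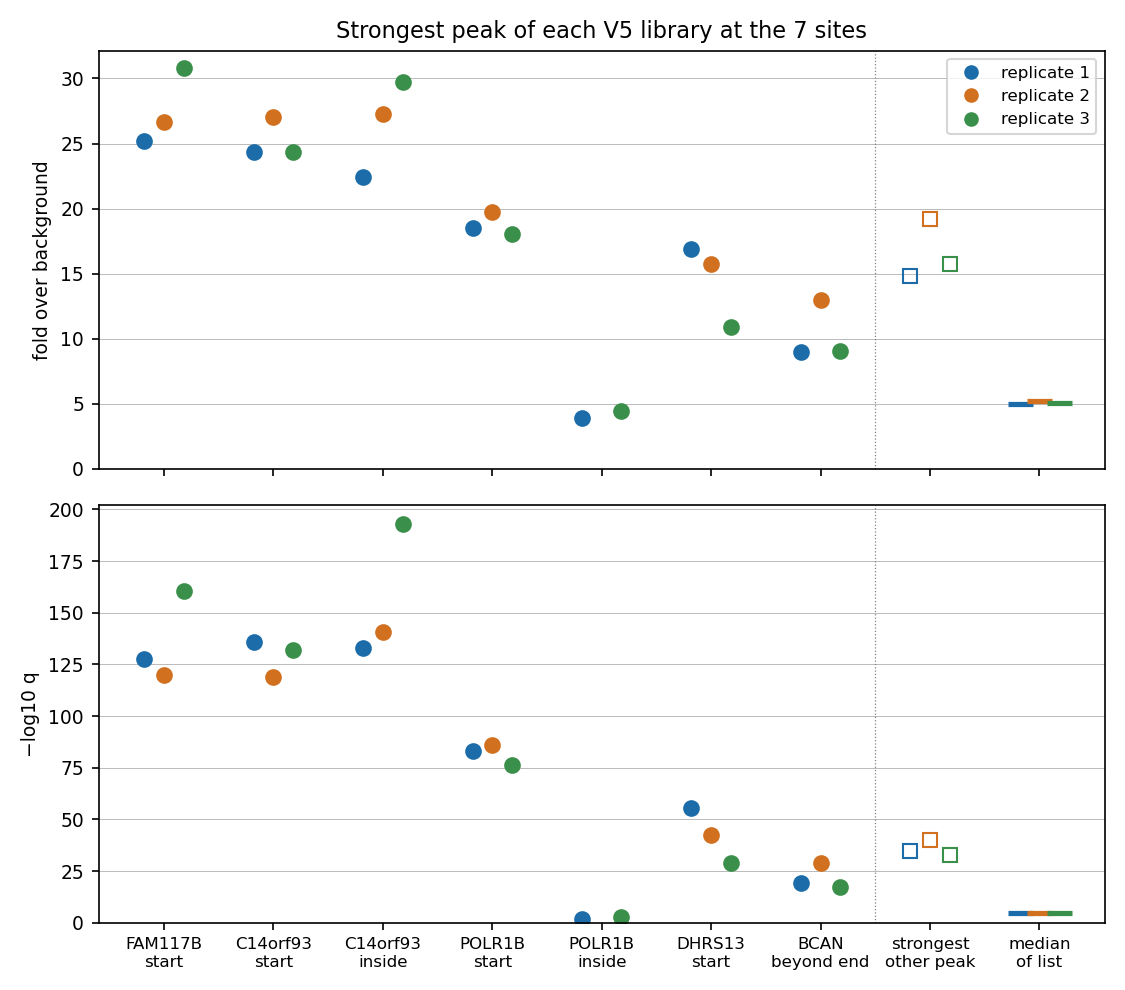
Fold over background (upper panel) and -log10 q (lower panel) of the strongest peak of each V5 library at each of the 7 sites, with the strongest peak elsewhere (open squares) and the median of each list (dashes) on the right. The sites at FAM117B and C14orf93 lie at folds of 22.4 to 30.8, and the site inside POLR1B lies below the list medians and has no peak of replicate 2.

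The strongest peak outside these sites had a fold of 14.8 in replicate 1, at TRIM71, of 19.2 in replicate 2, at GOLM1, and of 15.8 in replicate 3, at TRA2B. The 3 highest sites were thus above every other peak in each list. POLR1B stood above every peak elsewhere in the same list too, by 18.5 against 14.8 in replicate 1, 19.7 against 19.2 in replicate 2 and 18.1 against 15.8 in replicate 3. DHRS13 stood above them only in replicate 1, and BCAN in none. Just above BCAN in the order of regions up to 2000 bp wide came a region with no named gene within 1000 bp (chromosome 14, 31257905 to 31258654), with folds of 9.92, 11.996 and 8.62. Just below it came one at FOXN3 (chromosome 14, 89351495 to 89351894), with folds of 8.53, 10.4 and 10.8.

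Likeness of fold in the 3 lists was measured as the Euclidean distance between log2 folds over the 3 libraries, against the other regions of 3 libraries up to 2000 bp wide. The wider regions, such as those at TRIM71 and TRA2B, were left out of this search and may lie nearer. Within that limit the nearest region to FAM117B and to both sites of C14orf93 was at HMGCS1, an enzyme gene of cholesterol synthesis, at distances of 1.74, 1.51 and 1.61. HMGCS1 had folds of 11.0, 18.4 and 13.9, below those of FAM117B and C14orf93 in every list. It was the highest-ranked region left in the search, so being nearest to these sites shows no particular likeness. For POLR1B and DHRS13 the nearest within the same limit was at CCDC134 and SREBF2, the gene of a transcription factor of sterol synthesis, with folds of 14.8, 13.9 and 12.2, at distances of 0.83 and 0.31. For BCAN it was at ZFHX3, a transcription factor gene, with folds of 8.62, 13.97 and 9.96, at a distance of 0.18.

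**Figure D2:**
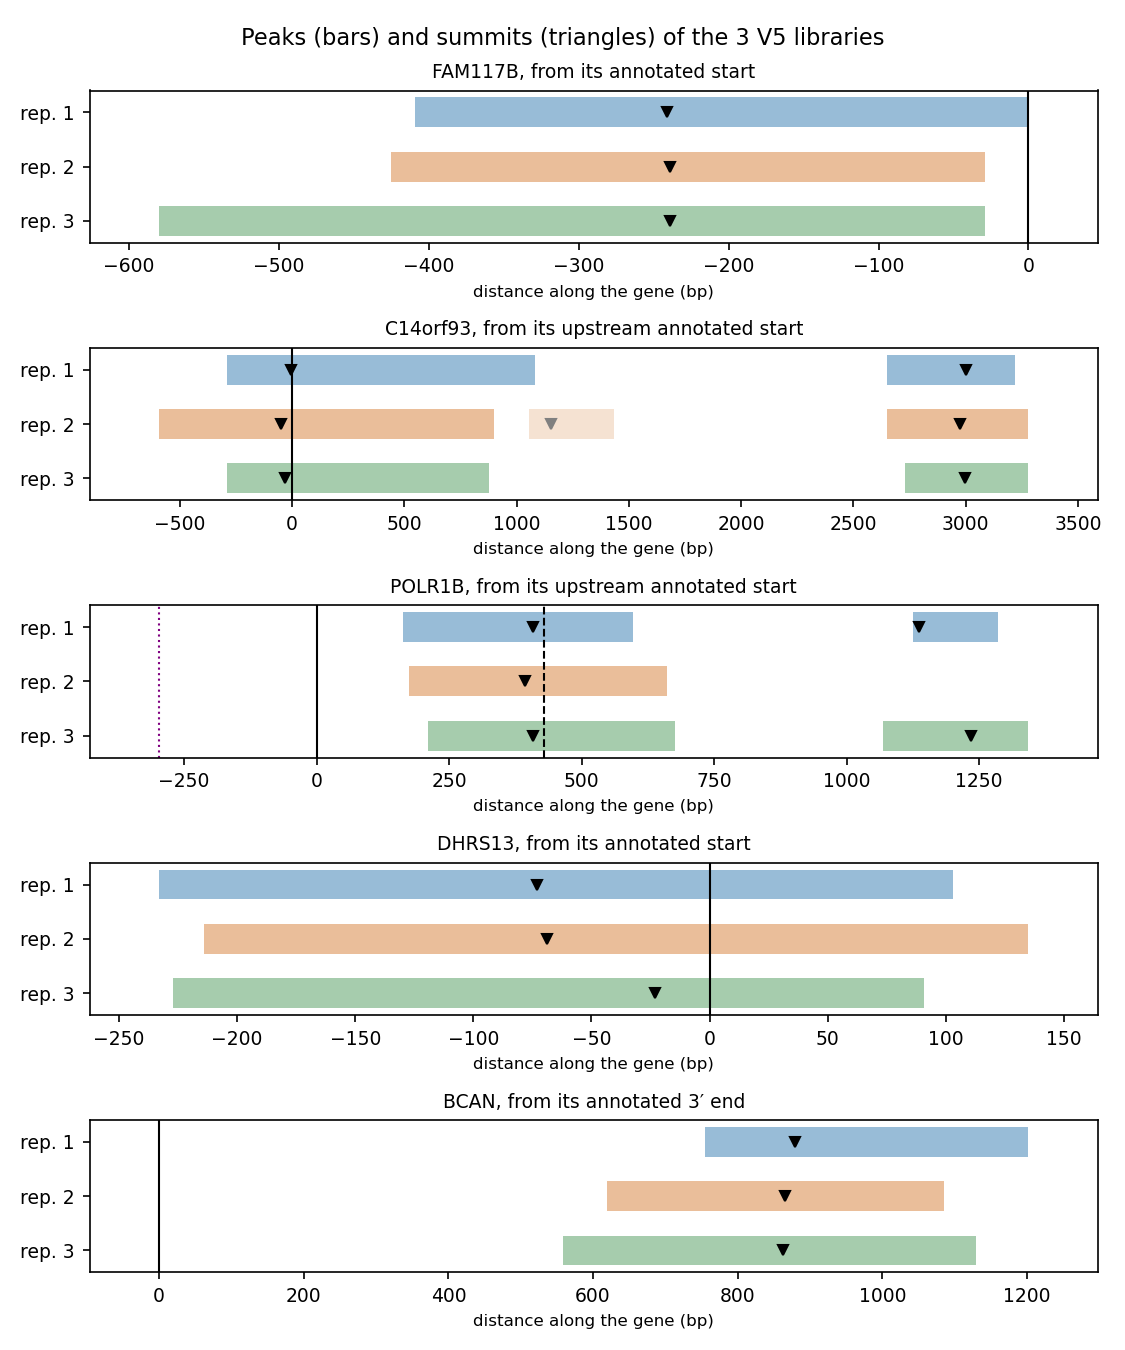
Peaks (bars) and summits (triangles) of the 3 V5 libraries against the distance in bp along each gene, with 0 (solid line) at the annotated start of FAM117B and DHRS13, at the upstream annotated start of C14orf93 and POLR1B and at the 3′ end of BCAN. Pale marks are the weak peak of replicate 2 in C14orf93. The dashed line is the downstream start of POLR1B and the dotted line the 3′ end of TTL. Summits at FAM117B line up within 2 bp and those at DHRS13 within 50 bp.

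The summits at the 4 starts all lay upstream of the nearest annotated start. This held for 12 of 12 summits, at distances of 3 to 241 bp with a median of 42.5 bp. In 42 other regions with summits of 3 libraries within 300 bp of an annotated start, 82 of 126 summits (65.1%) lay upstream, at a median distance of 95 bp. Summits of 1 site are not independent of each other, and the difference was not tested.

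Apart from the start of C14orf93, summit agreement at these sites was like that of other strong regions up to 2000 bp wide. The outer summits were 2, 47, 27, 15, 50 and 17 bp apart at FAM117B, the start of C14orf93, the inside of C14orf93, POLR1B, DHRS13 and BCAN, a median of 22 bp. Over the 615 regions named above the median was 77 bp, and the 25th percentile 34 bp. Among the 30 strongest of these elsewhere, the median was 29.5 bp and the range 0 to 480 bp. The start of C14orf93, at 2028 bp, is wider than the regions of that set. The next wider regions of 3 libraries, of 2052 and 2070 bp, had distances of 269 and 498 bp, but were weaker, at ranks 44 and 74. The distance of FAM117B was equalled or undercut by 3.41% of the 615 regions, that of POLR1B by 10.4% and that of DHRS13 by 36.6%. These shares are over regions of every strength, these sites included, and some of the weakest regions had distances of 0 to 2 bp.

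FAM117B and DHRS13 were the most isolated of the 6 sites, with the nearest other peak 361115 and 274956 bp away. Over the 615 regions the median distance was 4845 bp and the 90th percentile 288486 bp. Such distances also occurred at other strong regions. At HMGCS1, SREBF2 and ZFHX3, the regions nearest in fold, they were 466174, 384202 and 130350 bp. The sites at C14orf93, POLR1B and BCAN had another peak within 1214, 391 and 677 bp. For C14orf93 that neighbour was the gene's own other site, for POLR1B the weak inner site, and for BCAN a peak outside the 1000 bp reach.

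**Figure D3:**
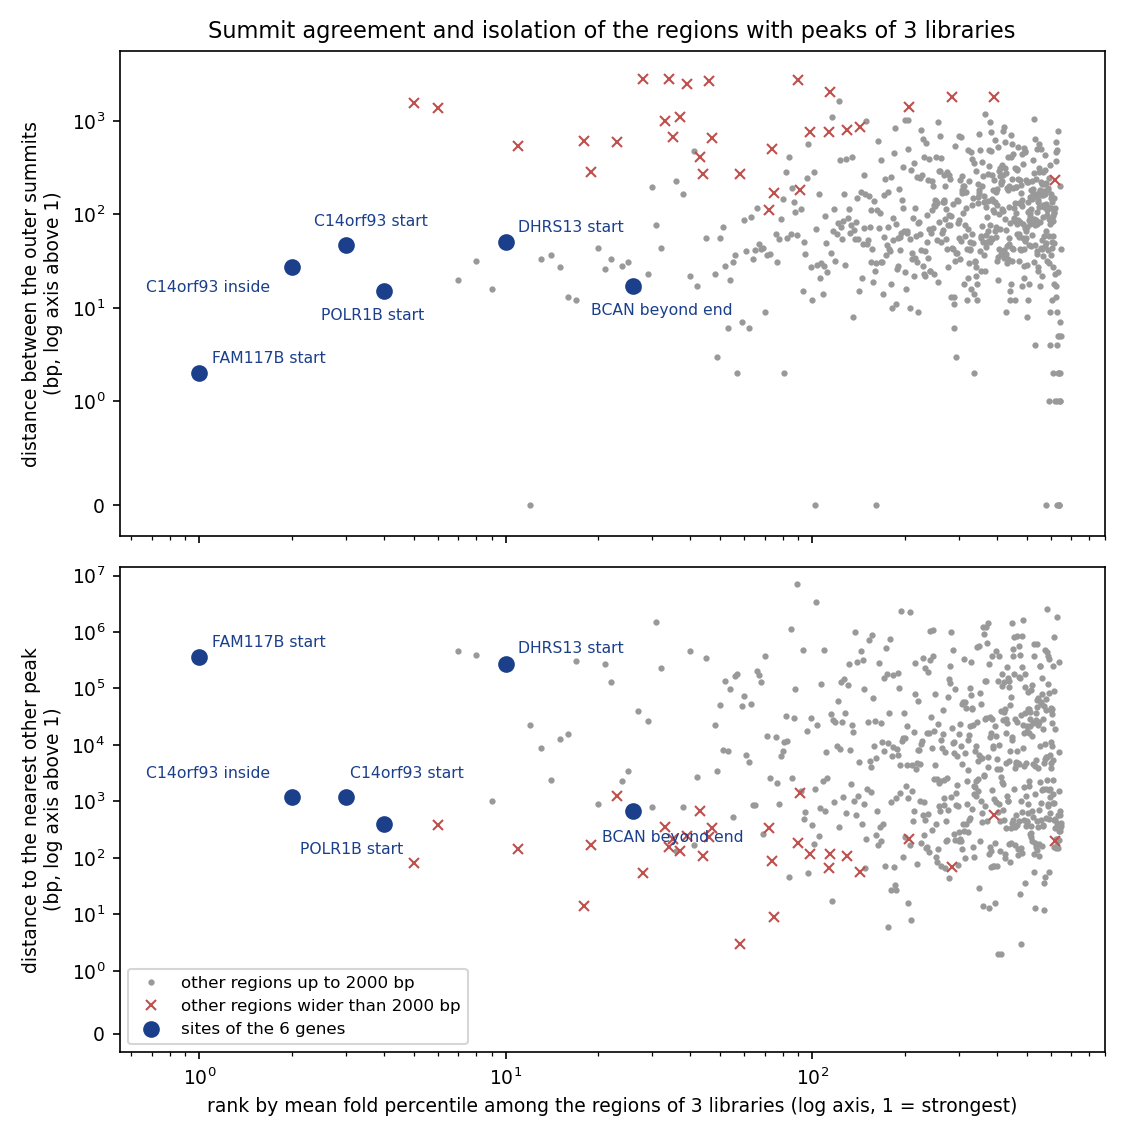
Distance between the outer summits (upper panel) and distance to the nearest other peak of any library (lower panel), both in bp on an axis that is logarithmic above 1, against the rank by mean fold percentile (log axis) for the 647 regions with peaks of 3 V5 libraries. The 6 sites (blue) have summit distances of 2 to 50 bp, and crosses mark other regions wider than 2000 bp.

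The 4 windows printed above were compared with all promoter windows for composition. A summit in each of the 3 libraries was present in 38 of 34961 windows on the chromosomes of the lists, 0.109%, and the 4 windows are among the 38 by the choice of the genes. The window of LOC105373562, which is not shown, is also among the 38, since it held the summits of the POLR1B site in all 3 libraries. The 4 windows held 67.3% G and C at FAM117B, 71.0% at C14orf93, 63.7% at POLR1B and 67.3% at DHRS13. The median was 65.7% over the 38 windows and 58.7% over all 35116 windows of the table. The ratio of observed to expected CpG was 0.913, 0.873, 1.01 and 0.823 in the same order, against a median of 0.905 over the 38 windows and 0.579 over all windows.

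The search covered 15 short motifs on both strands, and matches may overlap. Shares are given over all 35116 windows and over the 38 windows with a summit in each library, which include these 4. GGGCGG, the GC box bound by SP1 and its relatives, occurred in 3 of the 4 windows, those of FAM117B, C14orf93 and POLR1B, in 44.95% of all windows and in 63.2% of the 38. CCAAT, the box bound by NF-Y, occurred in FAM117B at bases 177 to 181 and 220 to 224, in C14orf93 at bases 190 to 194, in 34.6% of all windows and in 47.4% of the 38. CACGTG, the E-box of factors such as USF1, occurred in FAM117B alone of the 4, in 7.26% of all windows and in 10.5% of the 38. CCGGAAG, the core of ETS factor sites, occurred on the reverse strand of POLR1B at bases 209 to 215, in 10.3% of all windows and in 15.8% of the 38. The summits of POLR1B fell at bases 231, 216 and 231. TGANNNNGC occurred in FAM117B and POLR1B, in 41.8% of all windows and in 57.9% of the 38.

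None of the 4 windows held TATAAA, the TATA box, which occurred in 11.5% of all windows and in 5.26% of the 38. The other 9 motifs were also without a match there. They were TGACGTCA of cyclic AMP response factors, TGACTCA of AP-1, AAGATGG of YY1, TCACCCCAC of the sterol regulatory factors, TGTTTAC of FOXA factors, CAAAGTCCA of HNF4A, and the longer motifs of NRF1, of ZNF143 and of the palindromic TCTCGCG element.

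DHRS13 held none of the 15 motifs. After its sequence was read, AGGGGGCGC, the core letters of the site of the chromatin factor CTCF, was added to the search. It occurred at bases 110 to 118 and 196 to 204 of DHRS13, in no other of the 4 windows, in 1.93% of all windows and in 5.26% of the 38. Both copies lie within a repeat of 14 bases, cctagggggcgctc, at bases 107 to 120 and 193 to 206, and a repeat of that length or longer without overlap was present in 5.06% of all windows. The summits of DHRS13 fell at bases 178, 182 and 228, on either side of the downstream copy.

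The window of POLR1B held a longer direct repeat. The 25 bases tccggcgtgtaccgagagactggcg stood at bases 211 to 235 and again, without a gap, at bases 236 to 260, so that all 3 summits fell in the first copy. A repeat of that length or longer was present in 1.09% of all windows. A relaxed form of the ZNF143 motif, with any base at 1 more position, was also added after the sequences were read. Every match of the stricter form is also a match of this one. It occurred in POLR1B, as actacatttccc, at bases 165 to 176, in 1.75% of all windows and in 7.89% of the 38. The longest repeats in FAM117B and C14orf93 were 11 and 9 bases, lengths reached by 15.6% and 47.6% of all windows.

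Genes related to these 6 by family or process were then counted in 5 lists. Of 57 genes other than the 6, 4 (7.02%) had peaks of at least 2 libraries over the span or within 1000 bp, against 3.76% of all protein-coding genes. The 57 genes were not matched to all genes by length, with which the share for 3 libraries differed above, and the difference was not tested. With a peak in any library the count was 6 (10.5%), against 8.67%. Without any 1 replicate, 2 genes had peaks of both remaining libraries.

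Of 18 other genes of RNA polymerase I and its factors, TAF1D alone had peaks. TAF1D encodes a subunit of the selectivity factor that brings RNA polymerase I to ribosomal DNA promoters. It had peaks of 3 libraries within its span, with folds of 4.02 to 6.61 and widths of 170 to 836 bp, so none approached the 18.1 to 19.7 of POLR1B in the same lists. Their summits were 680 to 4038 bp from the nearest annotated start, against 20 to 35 bp at POLR1B.

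Of 17 other genes of tubulin tyrosination and tubulin ligases, TTLL2 and TTLL4, members of the tubulin tyrosine ligase-like family of amino acid ligases, had peaks of 2 libraries. TTLL2 had folds of 6.78 in replicate 1 and 9.89 in replicate 2, at a place 17179 and 17194 bp from the nearest annotated start. TTLL4 had folds of 4.999 in replicate 2 and 6.48 in replicate 3. TTLL5 had a peak of replicate 2 alone, with a fold of 3.94. The peaks of TTLL2 lay within its span, far from the start of the gene, whereas those counted for TTL lay outside its span.

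Of 8 other genes of lecticans and link proteins, VCAN, which encodes versican, had peaks of 2 libraries, with folds of 6.11 in replicate 1 and 6.24 in replicate 3. They lay inside the gene, 105433 and 105423 bp from its nearest annotated start. HAPLN2, the link protein gene nearest to BCAN, had none. Of 12 other DHRS genes, DHRS2 had a peak of replicate 2 alone, with a fold of 2.61. FAM117A and GLCCI1, the relatives of FAM117B, had no peak in any library.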

How the data were processed

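Each of the 3 V5 libraries has its own deposited peak list in narrowPeak layout on GRCh38, per the submitters' processing notes. Caller, control and threshold: not given in the sources used here. The fold is the authors' linear ratio of a peak over background, and the deposited -log10 p and -log10 q are those of the authors' caller. The deposited score column repeats the -log10 q, times 10 and truncated, and was left aside. Summits are deposited offsets, converted to 1-based positions. The lists hold 1599, 2557 and 1887 peaks in replicates 1, 2 and 3 and no read totals, so depth is unknown. Folds were ranked within a list, and percentiles were averaged over lists.

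Peaks overlapping by at least 1 bp were joined into sites. Gene spans came from the RefSeq table of GRCh38.p14, and strands, starts and sequences from the RefSeq promoter table. The genes and lists were chosen with earlier results of these data known. Named genes are the 6 genes, genes within 1000 bp of their sites, list members with peaks of at least 2 libraries, and the regions nearest in fold or rank. TRIM71, GOLM1, TRA2B, TTLL5, DHRS2 and HAPLN2 were named after their values were seen. No test was made, since the choice of the genes used these values. The code was tested on simulated lists. Python 3.11.15, numpy 2.4.6, pandas 2.3.3 and matplotlib 3.10.9 were used.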

Additional observations from a re-analysis of the deposited data

How the results depend on the processing

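Of 37 alternative values of the summary results, 29 kept within 1.5 times a count or within the spread between libraries. With peaks required to overlap the span, 3 of the 6 genes had peaks of 3 libraries (C14orf93, POLR1B and DHRS13). With peak midpoints in place of summits the median distance over the 6 sites was 85.25 bp. Ranked by -log10 q, their median percentile was 99.5. The share of all genes with a peak in every library was 1.01% among peaks with a -log10 q of at least 5. The 4 related genes became 1 with peaks of 3 libraries required, and 2 without any 1 replicate, an alternative added after the data were seen. Without any 1 replicate the 6 genes kept their peaks, and 6 or 7 sites were shared. No paired analysis was possible because no list of the control libraries was used and no groups were compared. Depth is unknown, so a library without a peak at a site does not show that binding was absent.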

Other observations

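The -log10 q gave another order at the top of the lists than the fold. In replicate 1, 6 peaks outside the sites described above had a higher -log10 q than FAM117B, with folds of only 1.82 to 2.55. In replicate 2 there were 3 such peaks, with folds of 1.90 to 2.70, and in replicate 3 there were none. All of them lay on chromosome 16 or on an unplaced contig, without a named gene within 1000 bp.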
